A study of Macaca fascicularis with 44 samples.

Results

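ENSMFAG00000002142, ENSMFAG00000001307 and ENSMFAG00000046267 are 3 gene identifiers, out of 17293 in the deposited count tables, that were chosen by their ACC levels: low with saline and over 4-fold higher with betamethasone in the anterior cingulate cortex (ACC). Their ACC values are therefore given as a description, without a test, and the tests below use the 3 regions that did not choose them. Expression was measured by RNA-seq in bulk tissue of female cynomolgus macaques that had received betamethasone or saline. There were 44 libraries from the anterior dentate gyrus (aDG; 5 betamethasone, 6 saline), posterior dentate gyrus (pDG; 5 and 6), basolateral amygdala (BLA; 4 and 6) and ACC (6 and 6). The labels used here give no dose, duration, age or animal for any library. Replicates may thus be technical, and p-values speak only of the spread among libraries.

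Betamethasone is a synthetic glucocorticoid that binds the glucocorticoid receptor, a transcription factor present in most brain cells. The bound receptor enters the nucleus and raises or lowers transcription of many genes, and the set of genes differs between tissues. The ACC is a limbic part of the frontal cortex, while the dentate gyrus and the basolateral amygdala belong to the hippocampal formation and the amygdala. The count tables carry identifiers only, with no symbols, and 0 of 17293 identifiers matched the gene table used here. The 3 are therefore described by identifier, with no function and no position.

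The gene reads per library ranged from 28449737 to 83322595. Levels are counts per 1000000 gene reads (CPM) on the annotated strand, and 3 reads, taken as the floor, correspond to 0.036 to 0.105 CPM. Counting error alone is wide at such levels: the 2 reads of ENSMFAG00000002142 in ACC saline replicate 3 gave 0.0646 CPM with an exact Poisson 95% interval of 0.00782 to 0.233. The library labelled aDG saline replicate 5 resembled the BLA mean (r = 0.60 across identifiers) and not the aDG mean (r = -0.21), and BLA saline replicate 5 resembled its own region weakly (r = 0.12). Tests that include these libraries are also given without them. By the same measure aDG betamethasone replicates 1, 2 and 3 and aDG saline replicates 2 and 6 were closest to the pDG mean. The aDG mean was closest for pDG saline replicates 2 and 5. All of these dentate gyrus libraries were kept under their labels. In bulk tissue, fewer cells of a type and less RNA per cell cannot be told apart.

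In ACC all 3 identifiers were low with saline and higher with betamethasone, as their choice required. Each betamethasone library lay above each saline library, in the same values that chose them. ENSMFAG00000002142 stood at 0.144, 0.0452, 0.0646, 0.106, 0.0879 and 0.167 CPM in saline replicates 1 to 6, which are 2 to 7 reads. In betamethasone replicates 1 to 6 it stood at 1.56, 1.31, 0.770, 0.338, 0.379 and 0.602 CPM, which are 13 to 97 reads. The groups did not overlap, and betamethasone replicates 1 and 2 were the highest. Betamethasone averaged 0.827 ± 0.503 and saline 0.102 ± 0.0466 CPM (SD, n = 6 each). On the log2 scale betamethasone was higher by 2.99 ± 0.46 (SE).

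ENSMFAG00000001307 stood at 0.226, 0.452, 0.129, 0.443, 0.198 and 0.0956 CPM in ACC saline replicates 1 to 6. With betamethasone it stood at 0.789, 1.22, 4.21, 2.05, 2.07 and 1.39 CPM. Here betamethasone replicate 3 was highest and replicate 1 lowest, so the library with most ENSMFAG00000002142 held least ENSMFAG00000001307. Betamethasone averaged 1.96 ± 1.21 and saline 0.257 ± 0.155 CPM (SD, n = 6 each), and the log2 difference was 2.91 ± 0.46 (SE). Without betamethasone replicate 3 the log2 change was 2.53.

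ENSMFAG00000046267 was the most abundant of the 3 in ACC. It stood at 1.91, 2.46, 1.91, 4.20, 0.813 and 2.51 CPM in saline replicates 1 to 6 (37 to 199 reads) and at 11.7, 4.50, 11.6, 9.26, 19.7 and 8.33 CPM in betamethasone replicates 1 to 6 (158 to 728 reads). The groups came closest for this identifier, since betamethasone replicate 2 lay just above saline replicate 4. Its averages were 10.9 ± 5.09 with betamethasone and 2.30 ± 1.11 CPM with saline (SD, n = 6 each), and the log2 difference was 2.25 ± 0.36 (SE). Without betamethasone replicate 5, its highest library, the log2 change was 2.0, at the 4-fold limit itself.

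**Figure D1:**
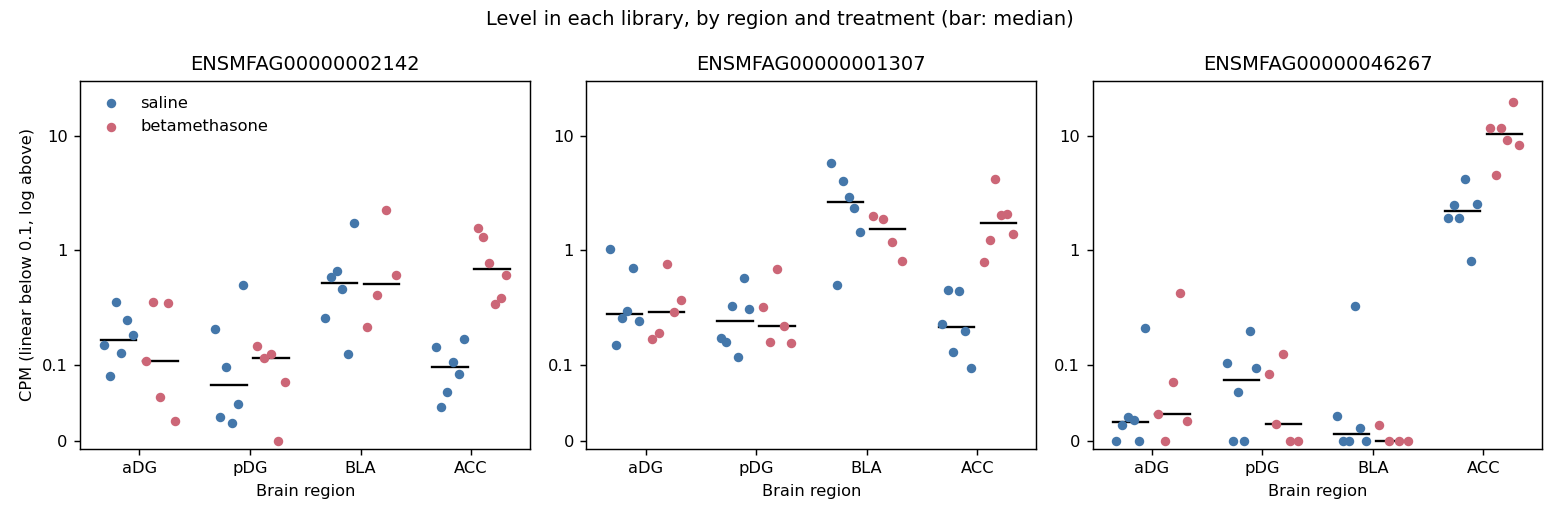
Level of the 3 identifiers in each library, in counts per 1000000 gene reads (CPM; axis linear below 0.1 and logarithmic above), by brain region, for saline (blue) and betamethasone (red); each point is a library and each bar a group median. The treatments separate in ACC, where the identifiers were chosen, and overlap in aDG, pDG and BLA, and ENSMFAG00000046267 stays at or under 0.423 CPM outside ACC.

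All 3 identifiers were among the 30 called higher in ACC (0.206% of 14543 tested), and 0.805% of the tested identifiers had every betamethasone library above every saline library. Both properties rest on the ACC values from which the 3 were picked, and nothing is read from them. At the 4-fold limit, ENSMFAG00000046267 lay just inside (4.77-fold) and ENSMFAG00000001447 just outside (3.93-fold; 6.48 ± 2.94 against 1.68 ± 0.537 CPM, SD, n = 6 each). ENSMFAG00000001307 was 7.52-fold and ENSMFAG00000002142 7.95-fold higher. Of the 30, the only other identifier over 4-fold was ENSMFAG00000045861 (14.1-fold). By mean CPM in ACC saline, 12.7% of all identifiers lay below ENSMFAG00000002142, 16.1% below ENSMFAG00000001307 and 27.5% below ENSMFAG00000046267.

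Reads mapped outside annotated genes had a lower mean share in the ACC betamethasone libraries, at 28.5% ± 1.55 against 31.4% ± 3.31 with saline (SD, n = 6 each). With this percentage as a covariate the log2 changes were 3.06 for ENSMFAG00000002142, 2.35 for ENSMFAG00000001307 and 2.01 for ENSMFAG00000046267. Without saline replicate 2 they were 2.84, 3.14 and 2.27. None of the 3 was called in either of these fits. These values, too, describe the libraries that chose the identifiers.

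The first question for the libraries that did not choose the identifiers was whether these also differed with betamethasone outside ACC. Those libraries may still share animals with the ACC libraries, which the labels do not say. No rise was detected in aDG, pDG or BLA. In aDG only ENSMFAG00000001307 had enough reads to be tested, and the treatments overlapped. It stood at 0.168, 0.188, 0.759, 0.288 and 0.370 CPM in betamethasone replicates 1 to 5 and at 1.02, 0.150, 0.256, 0.294, 0.703 and 0.241 CPM in saline replicates 1 to 6. The highest aDG library was a saline one. The log2 change was -0.31 ± 0.56 (SE; 95% interval -1.53 to 0.90; edgeR adjusted p = 0.9999), and -0.12 without aDG saline replicate 5. In the aDG fit 1 of 14511 identifiers passed (0.00689%), and it is not one of the 3. At an unadjusted p under 0.05 there were 538 (3.71%), and 20 (0.138%) had every betamethasone library above every saline one; ENSMFAG00000001307 was in neither set.

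In pDG, too, only ENSMFAG00000001307 could be tested. It stood at 0.320, 0.159, 0.679, 0.220 and 0.154 CPM in betamethasone replicates 1 to 5 and at 0.172, 0.157, 0.324, 0.116, 0.570 and 0.309 CPM in saline replicates 1 to 6. The groups overlapped over nearly their whole ranges. The log2 change was 0.20 ± 0.49 (SE; 95% interval -0.85 to 1.26; edgeR adjusted p = 0.932), and -0.37 without betamethasone replicate 3, the highest library. In the pDG fit 1 of 14427 identifiers passed (0.00693%), again not one of the 3. ENSMFAG00000001307 was also outside the 1258 at an unadjusted p under 0.05 (8.72%) and the 73 without overlap in the upward direction (0.506%).

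In BLA 2 of the 3 could be tested, and neither passed in edgeR or DESeq2 or had an unadjusted p under 0.05. ENSMFAG00000001307 stood at 2.0, 1.89, 1.17 and 0.799 CPM in betamethasone replicates 1 to 4 and at 5.72, 0.494, 4.04, 2.93, 2.32 and 1.43 CPM in saline replicates 1 to 6. Here 4 of 6 saline libraries lay above the highest betamethasone library, and saline replicate 2 lay below the lowest. The log2 change was -0.87 ± 0.55 (SE; 95% interval -2.07 to 0.32; edgeR adjusted p = 0.537). ENSMFAG00000002142 stood at 0.215, 0.407, 2.22 and 0.609 CPM with betamethasone and at 0.258, 0.579, 0.654, 0.455, 0.125 and 1.73 CPM with saline. A single library of each treatment was far above its group, betamethasone replicate 3 (125 reads) and saline replicate 6 (82 reads). The log2 change was 0.53 ± 0.75 (SE; 95% interval -1.11 to 2.17; edgeR adjusted p = 0.768), and -0.60 without betamethasone replicate 3. Without BLA saline replicate 5 the log2 changes were -0.94 for ENSMFAG00000001307 and 0.31 for ENSMFAG00000002142. In the BLA fit 0 of 14644 identifiers passed in edgeR (0%; 1493, or 10.2%, had an unadjusted p under 0.05) and 73 in DESeq2. No member was among the 0.792% with every betamethasone library above every saline library.

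Members left untested had few reads. ENSMFAG00000002142 held 1 to 18 reads per library in aDG with betamethasone and 4 to 11 with saline, at 0.178 ± 0.159 (SD, n = 5) and 0.190 ± 0.0958 CPM (SD, n = 6). In pDG it held 0 to 9 and 1 to 21 reads, at 0.0922 ± 0.0572 (SD, n = 5) and 0.151 ± 0.184 CPM (SD, n = 6). Both regions therefore lay near its ACC saline level of 0.102 CPM, with either treatment. A difference of a few reads was not detectable at this depth.

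ENSMFAG00000046267 was hardly present outside ACC. In aDG it reached 22 reads with betamethasone (replicate 4, 0.423 CPM) and 7 with saline (replicate 6, 0.211 CPM), in pDG 9 and 12 reads, and in BLA 1 and 13 reads. Of the 32 libraries of these regions, 24 held at most 3 reads and 13 held 0. The lowest ACC saline library, at 0.813 CPM, lay above the highest library of any other region. In BLA with betamethasone 3 of 4 libraries held 0 reads, which at a floor of 3 reads allows up to 0.0872, 0.0534 and 0.0631 CPM in replicates 2, 3 and 4.

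**Figure D2:**
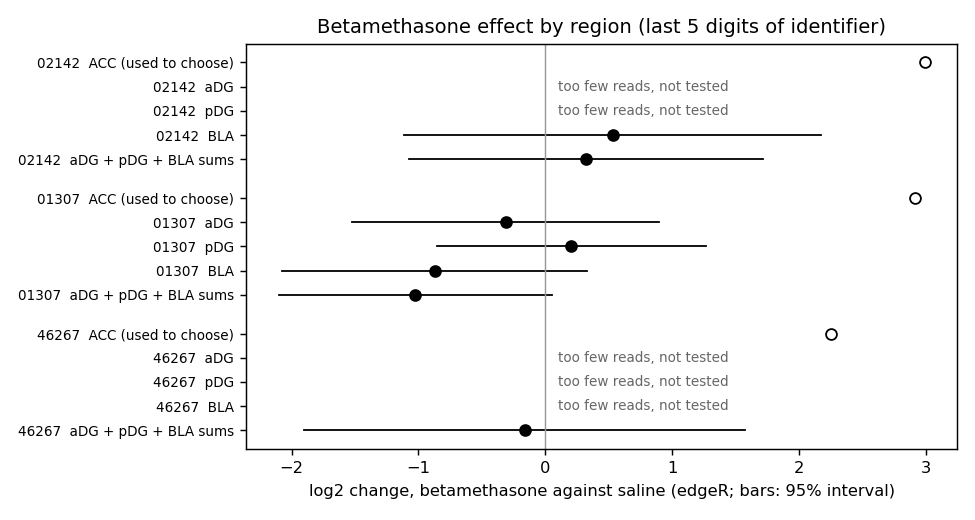
Log2 change with betamethasone against saline (horizontal axis) for the 3 identifiers, named by their last 5 digits, in each region and in counts summed over aDG, pDG and BLA; filled points with bars are edgeR estimates with 95% intervals, and open points are the ACC values that chose the identifiers. The open points lie between 2.25 and 2.99, while each filled point lies between -1.03 and 0.53 with an interval that includes 0.

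Title numbers of the libraries run nearly in parallel over the regions. Libraries of different regions may thus come from the same animals, which the labels do not say. Counts of aDG, pDG and BLA were therefore summed within 10 sets matched by title number (4 betamethasone, 6 saline). The sums also kept every member for testing. From aDG to BLA and ACC the step in title number is not the same for sets 9 to 12 as for the lower sets. Matching of sets 9 to 12 thus assumes a shift that the labels do not give. The log2 change was 0.32 ± 0.64 (SE; 95% interval -1.07 to 1.72; edgeR adjusted p = 0.919) for ENSMFAG00000002142, whose sums are mostly BLA reads. It was -0.16 ± 0.80 (SE; -1.90 to 1.57; edgeR adjusted p = 0.969) for ENSMFAG00000046267. Few reads carry this last value: aDG betamethasone replicate 4 alone held 22, and without its set the log2 change was -1.54. For ENSMFAG00000001307, whose sums are mostly BLA reads, it was -1.03 ± 0.49 (SE; -2.10 to 0.05; edgeR adjusted p = 0.667), and its unadjusted p was 0.0596. Of 15336 identifiers 0 passed in edgeR (0%; 1182, or 7.71%, at an unadjusted p under 0.05) and 114 in DESeq2, none of them among the 3. Without the set that holds aDG and BLA saline replicates 5 the log2 changes were 0.14 for ENSMFAG00000002142 and -1.03 for ENSMFAG00000001307, while ENSMFAG00000046267 had too few reads. Fitting the single libraries additively in place of the sums gave -0.013 for ENSMFAG00000002142 and -0.34 for ENSMFAG00000001307, and counting both strands together gave -0.41 for ENSMFAG00000001307. The ACC log2 changes are selected values, so nothing is read from setting these 3 intervals beside them. The difference between ACC and these regions was not tested, because ACC chose the identifiers.

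Whether the change with betamethasone differed among aDG, pDG and BLA was tested jointly for ENSMFAG00000001307 and ENSMFAG00000002142, the 2 identifiers kept in that fit. The adjusted p was 0.99998 for both in edgeR, where 0 of 15052 identifiers passed (0%; 229, or 1.52%, at an unadjusted p under 0.05) and 0 in DESeq2. Without aDG and BLA saline replicates 5 neither passed, and 0 identifiers did in edgeR. ENSMFAG00000002142 was kept largely for its BLA reads and had too few for the separate tests in aDG and pDG. Its adjusted p here is therefore given as a description. With betamethasone effects of 0.53 and -0.87 in BLA and wide intervals, equal effects are not shown.

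The identifiers differed in where they were found without treatment. ENSMFAG00000001307 was higher in BLA than in both parts of the dentate gyrus. With saline it averaged 0.443 ± 0.341 CPM in aDG, 0.275 ± 0.168 CPM in pDG and 2.82 ± 1.87 CPM in BLA (SD, n = 6 each). BLA exceeded aDG by 2.65 ± 0.55 on the log2 scale (SE; edgeR adjusted p = 0.00873) and pDG by 3.30 ± 0.57 (edgeR adjusted p = 0.000966). In 5 of 6 BLA libraries the level lay above every aDG and pDG saline library, the exception being BLA saline replicate 2 at 0.494 CPM. Without aDG and BLA saline replicates 5 the differences were 2.91 and 3.35 (edgeR adjusted p = 0.00301 and 0.000480). With both strands counted together they were 1.3 and 1.44 (edgeR adjusted p = 0.0253 and 0.00685). In these comparisons 5.47% and 11.9% of 14682 identifiers were called, 2.08% and 6.37% as higher in BLA.

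ENSMFAG00000002142 also had its highest saline mean of these regions in BLA, but whether the difference passed depended on the fit. It was kept in this comparison largely for its BLA reads, 7 to 82 per saline library. Saline libraries of aDG held 4 to 11 and of pDG 1 to 21, too few for the treatment tests of those regions. The p-values of ENSMFAG00000002142 here are therefore given as a description. With saline it averaged 0.634 ± 0.572 CPM in BLA, against 0.190 ± 0.0958 CPM in aDG and 0.151 ± 0.184 CPM in pDG (SD, n = 6 each). BLA exceeded aDG by 1.77 ± 0.67 on the log2 scale (SE; edgeR adjusted p = 0.142) and pDG by 2.0 ± 0.67 (edgeR adjusted p = 0.0597). Without aDG and BLA saline replicates 5 both differences passed (2.10 and 2.23, edgeR adjusted p = 0.0435 and 0.0219), and without BLA saline replicate 6 they were 1.12 and 1.35. The difference from pDG also passed in DESeq2 (2.03, adjusted p = 0.0384) and with both strands counted together (2.01, edgeR adjusted p = 0.0301). Between pDG and aDG neither identifier passed (log2 differences of -0.64 for ENSMFAG00000001307 and -0.23 for ENSMFAG00000002142, edgeR adjusted p = 0.9998 for both), and 0 of 14682 identifiers did in edgeR (0%; 525, or 3.58%, at an unadjusted p under 0.05) against 11 in DESeq2. Without aDG and BLA saline replicates 5 the log2 differences were -0.44 and -0.13, and neither passed. ENSMFAG00000046267 had too few reads for these tests.

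Ordered by mean CPM over all 8 groups, the 3 identifiers gave different sequences. ENSMFAG00000001307 was highest in BLA saline (2.82), followed by ACC betamethasone (1.96) and BLA betamethasone (1.47 ± 0.576, SD, n = 4), and these 3 groups overlapped. The other 5 groups lay between 0.257 and 0.443 CPM and overlapped too, with ACC saline lowest. ACC with betamethasone thus lay within the range of BLA, and ACC with saline overlapped the dentate gyrus. ENSMFAG00000002142 had the same 3 groups on top, in another order: BLA betamethasone (0.864 ± 0.921, SD, n = 4), ACC betamethasone (0.827) and BLA saline (0.634), none apart from the next beyond its spread. ENSMFAG00000046267 had ACC betamethasone (10.9) and ACC saline (2.30) on top, and the other 6 groups between 0.00538 and 0.113 CPM.

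The strands gave a further view of ENSMFAG00000001307. The tables count reads on the annotated strand and on the opposite strand apart, and over all identifiers the opposite strand held 1.25% to 1.90% of gene reads per library. For ENSMFAG00000001307 it held 49.0% of the reads over all libraries. Of 15915 identifiers with at least 100 reads on both strands together, 4.55% had more reads on the opposite strand. ENSMFAG00000001307, at 49.0%, was not among these, and the share of identifiers at or above 49.0% was not counted. Opposite-strand reads had nearly the same mean with either treatment in ACC. There were 34 to 78 opposite-strand reads with betamethasone and 37 to 51 with saline, at 1.04 ± 0.166 and 1.05 ± 0.104 CPM (SD, n = 6 each).

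Shares of the 2 strands in ACC rest on the same annotated-strand reads that chose the identifier, and are given as a description. The annotated strand held 9.09% to 29.9% of the reads (median 17.6%) in the 6 saline libraries and 38.6% to 81.9% (median 63.2%) in the 6 betamethasone libraries. The opposite strand had more reads in 6 of 6 saline libraries and in 1 of 6 betamethasone libraries, replicate 1. In the dentate gyrus the opposite strand had more reads in 21 of 22 libraries, and in BLA in 2 of 10. When both strands were counted together, the ACC log2 change was 1.21 ± 0.23 (SE) in place of 2.91, since the opposite-strand reads were added to both groups. Whether they belong to another gene that overlaps this one was not tested. The other members had few such reads, 6.08% for ENSMFAG00000002142 and 0.192% for ENSMFAG00000046267 over all libraries.

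**Figure D3:**
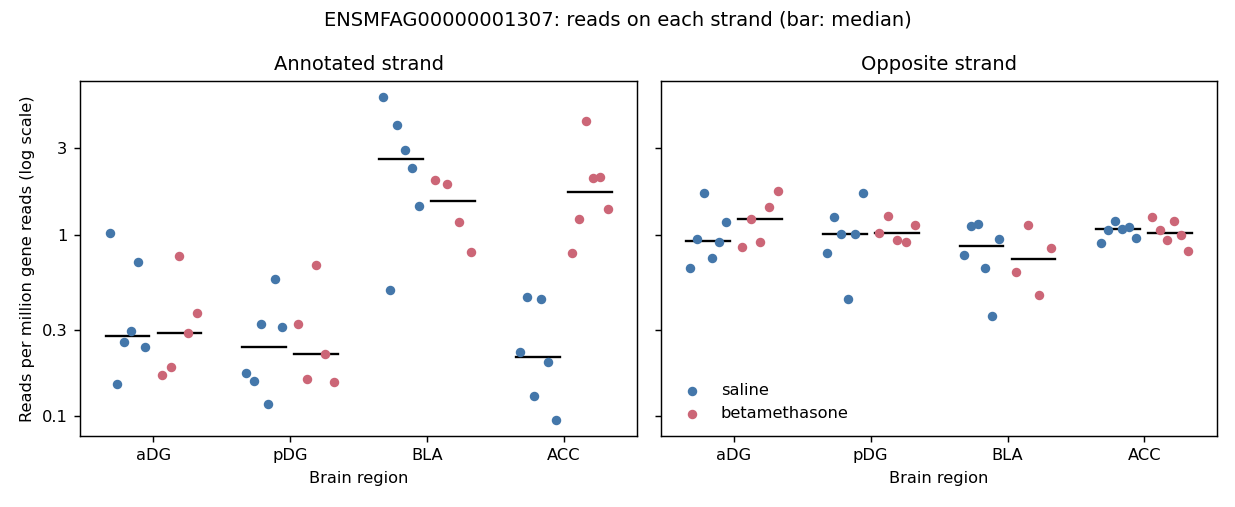
Level of ENSMFAG00000001307 in counts per 1000000 gene reads (CPM; logarithmic axis) on the annotated strand (left) and the opposite strand (right), by region, for saline (blue) and betamethasone (red); points are libraries and bars group medians. On the opposite strand all libraries lie between 0.357 and 1.75 CPM, while on the annotated strand they range from 0.0956 to 5.72.

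Under the matching by title number given above, libraries of the same set were high together in some cases and not in others. In aDG and pDG the highest betamethasone library of ENSMFAG00000001307 was replicate 3 (0.759 and 0.679 CPM), and these libraries belong to 1 set. ACC betamethasone replicates 3 and 4, of which either could belong to it by title number, held 4.21 and 2.05 CPM. Among saline libraries aDG and pDG replicates 5, also of 1 set, held 0.703 and 0.570 CPM, but that aDG library is the one that resembled BLA, where this identifier is high. The highest BLA library of ENSMFAG00000001307 (saline replicate 1, 5.72 CPM) shared its set with the highest aDG library (1.02 CPM), whereas pDG and ACC of that set held 0.172 and 0.226 CPM. The set with most ENSMFAG00000002142 in BLA with saline (1.73 CPM) also held its highest pDG (0.500 CPM) and ACC saline (0.167 CPM) levels, but not its highest aDG level (0.181 CPM). In the betamethasone set with most ENSMFAG00000002142 in BLA (2.22 CPM), pDG held 0 reads and ACC 0.379 CPM, the second lowest of 6. The aDG library of that set held 0.346 CPM (18 reads), close to the highest aDG betamethasone library (0.352 CPM).

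**Figure D4:**
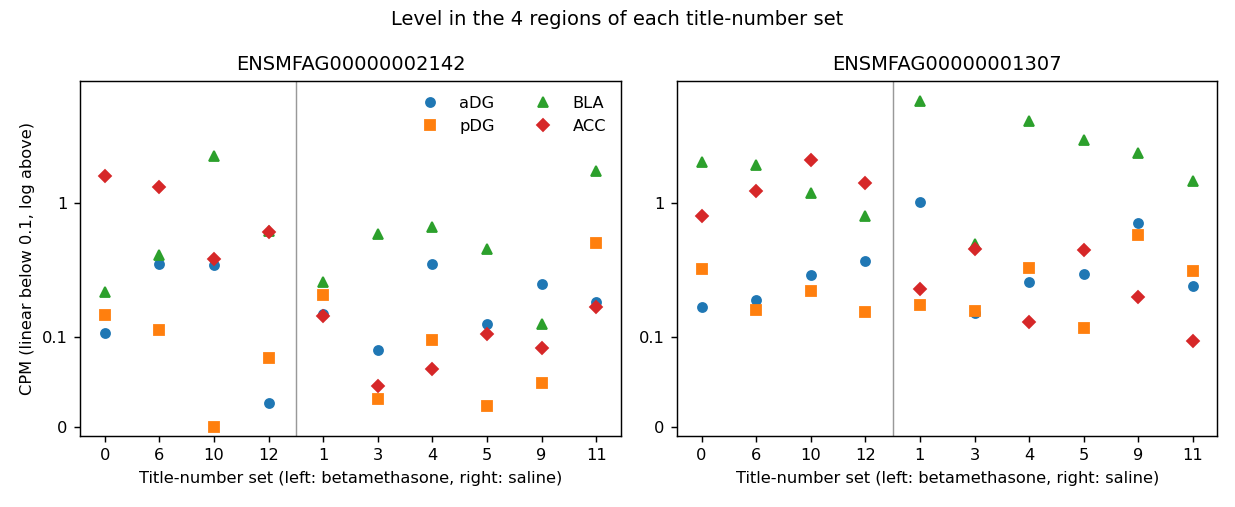
Level of ENSMFAG00000002142 and ENSMFAG00000001307 in counts per 1000000 gene reads (CPM; axis linear below 0.1 and logarithmic above) in the 4 regions of the 10 sets matched by title number, with betamethasone sets left and saline sets right of the line. For ENSMFAG00000001307 the ACC symbols lie between 0.789 and 2.07 CPM in the 4 betamethasone sets and at or under 0.452 CPM in the saline sets, while BLA lies highest in set 1 at 5.72 CPM.

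The identifiers whose levels over all 44 libraries were most like each member were found by the Pearson correlation of log2(CPM + 0.1) among 15256 others. The libraries share depth and region, so r describes likeness and has no p. ENSMFAG00000046267 was most like ENSMFAG00000041678 (r = 0.96) and ENSMFAG00000037859 (r = 0.94), which were also found mainly in ACC. ENSMFAG00000041678 averaged 64.9 CPM with betamethasone and 41.4 with saline there and at most 0.441 in other groups, and ENSMFAG00000037859 averaged 6.90 and 6.57 CPM against at most 0.212. Their ACC log2 changes were 0.67 and 0.083, beside the selected 2.25 of ENSMFAG00000046267.

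ENSMFAG00000001307 was most like ENSMFAG00000000085 (r = 0.76) and ENSMFAG00000000133 (r = 0.76), which with saline had their highest means in BLA, 24.5 and 128.5 CPM. ENSMFAG00000000085 averaged 23.2 CPM in ACC with betamethasone and 13.9 with saline. ENSMFAG00000002142 was most like ENSMFAG00000039495 (r = 0.65) and ENSMFAG00000003863 (r = 0.65). Among the members themselves r was 0.53 for ENSMFAG00000002142 with ENSMFAG00000001307, 0.23 for ENSMFAG00000002142 with ENSMFAG00000046267 and 0.20 for ENSMFAG00000001307 with ENSMFAG00000046267. The identifiers most like each member were picked as the highest of 15256, so nothing is read from their exceeding the r between members. All these r values include the ACC libraries that chose the members.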

How the data were processed

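Each deposited table holds whole-number read counts per gene of a single library, in columns without strand and by strand. The submitters' processing notes name STAR, without a version; build and annotation are not stated there. The 3 identifiers and the tests were chosen with earlier results of these data known. Counts of the strand column with 51.7 to 79.3 times the reads of the other were used, identifiers on several rows (139) were summed, and rows naming no gene were left out (24.5% to 37.2% of mapped reads lay outside genes, 0.333% to 0.455% were ambiguous). Multimapping reads were listed as 0. Depth is given above; intervals and floors cover counting error only. Within a group no library looked deposited again under another name: over the 101 within-group pairs chi-square was at least 20.03 times its degrees of freedom. Pairs of libraries from different groups were not checked.

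Groups follow the labels, with replicates numbered in accession order. Tests ran on whole tables in edgeR 4.0.16 under R 4.3.3 (TMM, filterByExpr with minimum count 10 and total 15, robust quasi-likelihood F tests, Benjamini-Hochberg over all identifiers kept, threshold 0.05) and, as an alternative, DESeq2 1.42.0. SE is the log2 change divided by the square root of F. The named identifiers are the 3 members, the 2 most like each, and those at the 4-fold limit. Fits were also run on simulated data with a single spread among libraries, smaller than that of the members, so that run does not bear on the members.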

Additional observations from a re-analysis of the deposited data

Results flagged for a closer look

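In 6 of 24 groups of 4 to 6 libraries the highest library of a member stood further from the rest than a Dixon test at the 95% level allows; chance alone flags about 1 in 20 groups, and values near 0 reads are skewed. For ENSMFAG00000002142 it was BLA saline replicate 6 (1.73 CPM, the next 0.654). For ENSMFAG00000001307 it was ACC betamethasone replicate 3 (4.21 CPM, the next 2.07), whose gap of 0.626 of the range is barely above the critical 0.625. For ENSMFAG00000046267 the libraries were aDG betamethasone replicate 4 (0.423 CPM, 22 reads), aDG saline replicate 6 (0.211 CPM, 7 reads), BLA saline replicate 4 (0.328 CPM, 13 reads) and BLA betamethasone replicate 1 (0.0215 CPM, a single read).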

How the results depend on the processing

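Of 102 member results under other settings than leaving out a library, 93 kept their direction and side of the threshold or, in ACC, moved by less than the spread between replicates. Exceptions were the unstranded column, giving ENSMFAG00000001307 1.21 in ACC and 0.11 in aDG, the covariate in BLA (ENSMFAG00000002142 -0.17) and an additive fit of single libraries in place of sums (ENSMFAG00000002142 -0.013). The saline difference of ENSMFAG00000002142 between BLA and pDG passed with DESeq2 (2.03), the unstranded column (2.01), without aDG and BLA saline replicates 5 (2.23) and with the title-number set as replicate block (2.0), and that between BLA and aDG without replicates 5 (2.10). The cause was not tested. Pairing is a hint from the data only: of 31 same-set pairs among aDG, pDG and BLA, 28 had deviations correlating above 0.1 (-0.07 to 0.62). Same-set pairs with ACC did so in 10 of 10 cases for each of aDG, pDG and BLA (0.103 to 0.494). The replicate block gave 2 identifiers between pDG and aDG, 1783 between BLA and aDG and 2795 between BLA and pDG.

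Counts of identifiers past the threshold moved with DESeq2 to 36 in aDG, 82 in pDG, 73 in BLA, 557 in ACC, 114 for the sums, 11 between pDG and aDG and 1266 between BLA and aDG. They moved to 14 in ACC with the covariate, to 569 for the sums with the additive fit, and without replicates 5 to 1 (pDG and aDG) and 2446 (BLA and aDG). Leaving out each library gave 0 to 2 in aDG, 0 to 7 in pDG, 3 to 206 in ACC, 0 to 8 for the sums, 427 to 1936 between BLA and aDG and 1330 to 2096 between BLA and pDG.

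Leaving out each library, the log2 change of ENSMFAG00000001307 ranged from -0.82 to 0.10 in aDG, from -0.37 to 0.38 in pDG (8 of 11 fits, too few reads in the others), from -1.11 to -0.55 in BLA, from -1.23 to -0.68 in the sums and from 2.53 to 3.14 in ACC. For ENSMFAG00000002142 it ranged from -0.60 to 1.18 in BLA, from -0.60 to 0.88 in the sums and from 2.69 to 3.18 in ACC, and the saline differences from -1.08 to 0.015 (pDG and aDG), 1.12 to 2.02 (BLA and aDG) and 1.35 to 2.84 (BLA and pDG). For ENSMFAG00000046267 it ranged from -1.54 to 0.18 in the sums (7 of 10 fits) and from 2.0 to 2.52 in ACC. Read number limits ENSMFAG00000002142 and ENSMFAG00000046267 in the dentate gyrus.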

Other observations

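Outside ACC 13 of 32 libraries held 0 reads of ENSMFAG00000046267, and the 4 highest held 22, 13, 12 and 9 reads. The highest aDG library (betamethasone replicate 4, 0.423 CPM) shares its title-number set with the highest ACC library (betamethasone replicate 5, 19.7 CPM), while pDG and BLA of that set held 0 reads. The highest BLA library (saline replicate 4, 0.328 CPM) shares its set with the highest ACC saline library (replicate 4, 4.20 CPM), and pDG of that set held 0 reads. The highest pDG library (saline replicate 5, 0.196 CPM) shares its set with the lowest ACC saline library (replicate 5, 0.813 CPM). On the opposite strand ENSMFAG00000046267 held 0 reads in all 32 libraries outside ACC and 7 reads in the 12 ACC libraries, against 3551 on the annotated strand.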
